A study of Homo sapiens with 8 samples.

Results

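Passenger arms of miRNA hairpins were followed in PC-3, a cell line from a human prostate cancer, after exposure to luteolin and gefitinib. A passenger arm is the strand of a miRNA hairpin that is retained less often than its partner, and the members were 47 arms that older miRNA nomenclature marked as minor, taken by name from a list (hsa-miR-100-3p, hsa-miR-29b-1-5p, hsa-miR-15b-3p, hsa-let-7a-3p and others, written below without the species prefix). The list was made with the abundance of the hairpins in these data in view, so that the level of a member relative to its partner is given only as a description and the tests concern its change with treatment. All 47 of 47 names were on the array, which measured 1887 human miRNAs and held 519 hairpins with both arms. The 4 groups were cells treated for 24 h with DMSO, the solvent of both drugs, with 60 µM luteolin, with 60 µM gefitinib, or with both drugs at 60 µM each, which is called the co-administration below. Luteolin is a flavonoid found in plants, and gefitinib blocks the kinase of the epidermal growth factor receptor. There were 2 arrays per group, described in the labels as biological replicates of the 1 cell line, so that the p-values measure only the spread between such samples. The comparisons ask how each drug, and the drugs together, change miRNA levels.

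A miRNA gene is transcribed as a long precursor, from which Drosha cuts a hairpin and Dicer then cuts a short duplex of a 5p and a 3p arm. An Argonaute protein loads 1 of these strands, the guide, whose seed (bases 2 to 8) pairs with target mRNAs, and the other strand, the passenger, is released and degraded. Both arms of a hairpin therefore begin at the same number of molecules, and their ratio depends on which strand is loaded and on how long each strand lasts. The strand that starts with U or A and has the less stably paired 5′ end is in general the one that is loaded.

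Mature sequences are shown for the 7 hairpins whose arm ratio changed on co-administration, with miR-29a, a relative of miR-29b-1 whose ratio did not pass the test, and miR-629, whose listed arm rose. The sequences are from RefSeq (GRCh38.p14), written 5′ to 3′ with the seed in capitals, and in each pair the member is first and its partner second.
miR-100-3p: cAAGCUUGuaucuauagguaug
miR-100-5p: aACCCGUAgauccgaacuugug
miR-29b-1-5p: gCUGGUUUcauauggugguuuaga
miR-29b-3p: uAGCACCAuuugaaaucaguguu
miR-182-3p: uGGUUCUAgacuugccaacua
miR-182-5p: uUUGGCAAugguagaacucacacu
miR-15b-3p: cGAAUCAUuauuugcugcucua
miR-15b-5p: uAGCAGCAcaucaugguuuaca
miR-30e-3p: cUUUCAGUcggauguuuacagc
miR-30e-5p: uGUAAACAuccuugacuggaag
miR-16-2-3p: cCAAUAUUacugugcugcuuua
miR-16-5p: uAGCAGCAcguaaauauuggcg
miR-20a-3p: aCUGCAUUaugagcacuuaaag
miR-20a-5p: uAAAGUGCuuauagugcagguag
miR-29a-5p: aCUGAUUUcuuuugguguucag
miR-29a-3p: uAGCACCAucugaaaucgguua
miR-629-3p: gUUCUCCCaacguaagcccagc
miR-629-5p: uGGGUUUAcguugggagaacu

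The partners miR-15b-5p and miR-16-5p carry the same seed, AGCAGCA, as miR-29a-3p and miR-29b-3p share AGCACCA, whereas the member arms of these hairpins have 4 different seeds. Of the 47 members, 42 matched the RefSeq table, and miR-21-3p, miR-221-5p, miR-31-3p, miR-505-5p and let-7f-2-3p are given by name only. Among these 42 members, 18 began with A, 19 with C, 3 with G and 2 with U. Among the 44 partners with a sequence, 30 began with U, 9 with A, 5 with C and 0 with G. The median GC content was 50% in the members and 45.5% in the partners. Only 2 seeds were shared between members, UAUACAA by let-7a-3p, let-7b-3p and let-7f-1-3p, and UUUCAGU by miR-30a-3p and miR-30e-3p.

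The signals of each array were divided by its 75th percentile and multiplied by the geometric mean of the percentiles of all 8 arrays. They therefore stay on the scale of the scanner signal and are not multiples of the percentile. The percentiles ranged from 60.5 to 92.7 and were taken from 365 miRNAs, those that every array detected. The number of arrays, 2 per group, limits the precision of each value below. The epithelial marker miR-200b-3p was detected on all 8 arrays, miR-205-5p was detected on 6 arrays, and miR-200c-3p, miR-141-3p and miR-203a were detected on none. Of 4 blood markers, only miR-142-3p was detected, on 1 array. The muscle and liver markers were detected on none. Of 2 nervous system markers, miR-124-3p was detected on no array and miR-9-5p on all 8, at 7.58 to 14.9.

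Fewer passenger arms were detected in both groups that received luteolin. Of the 47 members, 22 were detected on both arrays of DMSO-treated cells, 20 with gefitinib, 16 with luteolin and 16 on co-administration. Counted on each array, 23 and 22 members were detected with DMSO, 22 and 20 with gefitinib, 19 and 16 with luteolin, and 16 and 16 on co-administration. The number of all miRNAs detected was 475 and 430 with DMSO, 481 and 468 with gefitinib, 479 and 407 with luteolin, and 447 and 395 on co-administration. The co-administration numbers overlap those with DMSO and luteolin and lie below those with gefitinib, and their part in the members' counts was not tested. Over all arrays, 15 members were detected on all 8 arrays, 10 on 1 to 7 arrays and 22 on none. By contrast, 44 of the 45 partner arms had a signal on every array, all but miR-224-5p. The members with no signal included let-7b-3p, let-7d-3p, let-7g-3p, miR-27a-5p, miR-93-3p and miR-30a-3p. A member that is not detected has only an upper limit, and the lowest signal that the software called detected lay between 0.512 and 0.830 on the scaled arrays.

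**Figure D1:**
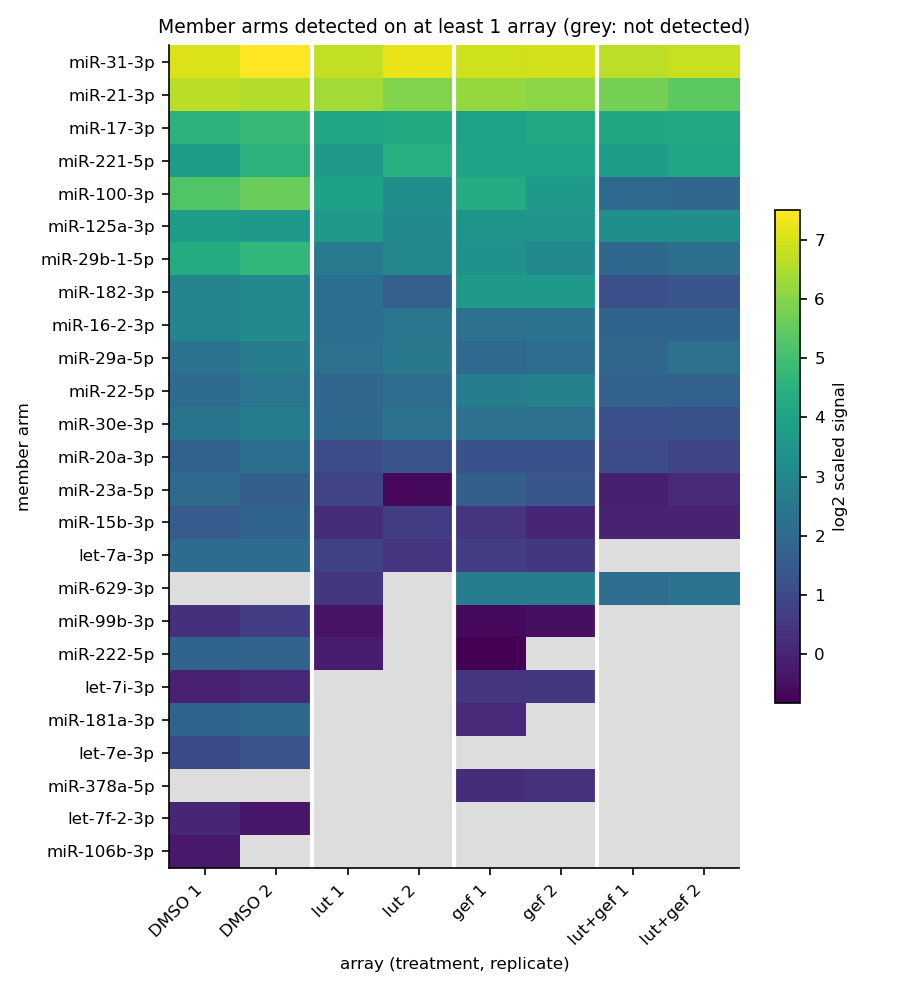
Scaled signal of the 25 member arms detected on at least 1 array, as log2 by colour, with 1 column per array grouped by treatment (lut, luteolin; gef, gefitinib) and grey for an arm that was not detected. The 15 arms at the top have a signal on all 8 arrays, and most of the remaining arms have one with DMSO and none on co-administration, with miR-629-3p as the reverse.

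The arm ratio is log2 of the signal of the member over that of its partner on the same array. A probe's brightness depends on its sequence as well as on its target, so that the value of a ratio is not a ratio of molecules and only its change between treatments is read. How the arrays are scaled cancels in it. The ratio was tested with limma for the 36 hairpins with both arms detected on all 8 arrays, 15 of them members and 21 other hairpins, whose weaker arm was set over the stronger one. A ratio was called changed when its Benjamini-Hochberg adjusted p-value, taken over these 36 hairpins, was below 0.05. This requirement leaves out arms that sank below detection in a group, and these are given separately.

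On co-administration, 7 of the 15 member ratios fell and none rose, by 1.80-fold to 10.3-fold. In order of size these arms were miR-100-3p (the largest change), miR-29b-1-5p, miR-182-3p, miR-15b-3p, miR-30e-3p, miR-16-2-3p and miR-20a-3p. Over all 36 hairpins 22.2% were called lower and 0% higher. Among the 21 other hairpins 1 fell, that of miR-501-3p. The median change of the ratio was -0.94 in the members and -0.04 in the other hairpins. The ratios of 12 of the 15 members lay below those of DMSO-treated cells on both arrays, without overlap, which was so for 52.8% of all 36 hairpins and for 7 of the other 21. With 16 added to each signal before the ratio was taken, 0 of the 15 members were called and their median change was -0.16. With another background correction and normalization together (normexp and quantile) 3 were called. The members' median change was then about the -0.04 that the other hairpins had in the main fit. Without the second co-administration array, or without the first DMSO array, 4 were called.

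**Figure D2:**
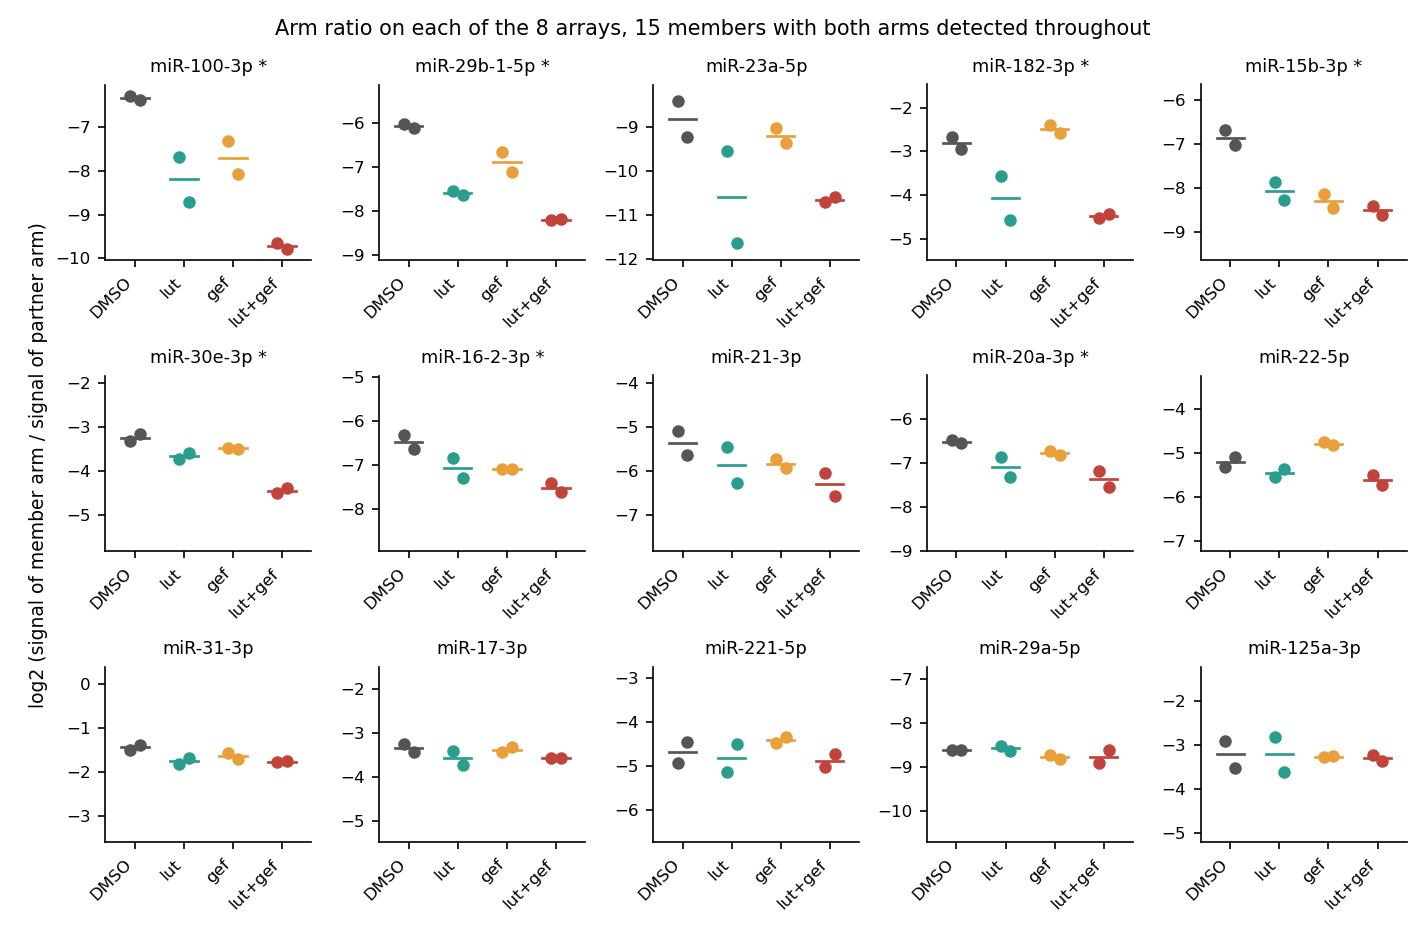
Log2 arm ratio (member over partner) of the 15 members with both arms detected on all 8 arrays, 1 panel per member and 1 point per array, with the group mean as a line; each vertical axis spans the same range around another centre, and an asterisk marks the 7 ratios that fell on co-administration against DMSO (limma, adjusted p below 0.05). In miR-100-3p and miR-29b-1-5p the co-administration arrays lie lowest and both single drugs between them and DMSO, while the groups in the bottom row lie close together.

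miR-100-3p moved furthest. Its partner miR-100-5p belongs to the miR-99/100 family, which is known to target mTOR, and the hairpin lies in the host transcript MIR100HG (GRCh38.p14, chr11:122152229-122152308, minus strand). The scaled signal of miR-100-3p was 37.8 and 48.2 with DMSO, 15.2 and 10.0 with luteolin, 19.7 and 12.5 with gefitinib, and 4.06 and 3.76 on co-administration. The signal of miR-100-5p stayed between 2983 and 4217 on the 8 arrays. The arm ratio was -6.35 ± 0.06 (SD, n = 2) with DMSO and -9.71 ± 0.10 on co-administration, with no overlap between any drug group and DMSO. The ratio thus fell by 3.37 on the log2 scale on co-administration (SE 0.39, limma adjusted p = 0.00169) and fell by 1.85 with luteolin (SE 0.39, adjusted p = 0.0316). With gefitinib its change was -1.36 (adjusted p = 0.127), which did not pass. The luteolin call was lost without either DMSO array (adjusted p = 0.175 and 0.144), without the second luteolin array (0.095) and without either co-administration array (0.093), whereas the call on co-administration held whichever of the 8 arrays was left out.

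Of the 2 miR-29 members, 1 had a ratio that passed the test, and the difference between the 2 was not tested. The miR-29 family is known to target collagen mRNAs, and miR-29a and miR-29b-1 are neighbours on the minus strand of chromosome 7 (chr7:130876747-130876810 and chr7:130877459-130877539, GRCh38.p14). The signal of miR-29b-1-5p was 19.9 and 25.8 with DMSO, 5.93 and 8.18 with luteolin, 10.68 and 8.94 with gefitinib, and 3.899 and 4.79 on co-administration. Every drug array lay below both DMSO arrays. Its arm ratio fell by 1.51 with luteolin (SE 0.20, limma adjusted p = 0.00678) and fell by 2.13 on co-administration (SE 0.20, adjusted p = 0.000882), and the change of -0.82 with gefitinib was not called (adjusted p = 0.0922). The luteolin call was lost without either DMSO array (adjusted p = 0.0705 and 0.0556), and the call on co-administration held without any 1 of the 8 arrays. The partner miR-29b-3p is also made from a second hairpin, MIR29B2, so that this ratio compares 1 hairpin with the product of both. The signal of miR-29a-5p was 5.02 and 6.39 with DMSO and 3.75 and 4.94 on co-administration. Its arm ratio changed by 0.04 with luteolin, -0.15 with gefitinib and -0.15 on co-administration, and none of these passed the test. Among the hairpins that are not members, the ratio of miR-29c-5p to miR-29c-3p changed by 0.62, 0.50 and 0.13 in the same order. These changes were not called either.

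Both members of the miR-15/16 hairpins fell. These miRNAs are known to target BCL2, and miR-15b and miR-16-2 are made from 1 cluster within SMC4 (chr3:160404588-160404685 and chr3:160404745-160404825, plus strand, GRCh38.p14). The signal of miR-15b-3p was 3.03 and 3.62 with DMSO, 1.21 and 1.59 with luteolin, 1.33 and 1.04 with gefitinib, and 1.00 and 0.985 on co-administration. These signals lie close to the lowest detected ones. The arm ratio of miR-15b-3p fell by 1.22 with luteolin (SE 0.23, limma adjusted p = 0.0298), fell by 1.44 with gefitinib (adjusted p = 0.0242) and fell by 1.65 on co-administration (adjusted p = 0.00221). It was the single member ratio called with all 3 treatments, and after normexp with quantile normalization its changes were 0.0044, 0.077 and 0.025 and were not called. The calls with luteolin and with gefitinib were each lost when a DMSO or a co-administration array was left out, with luteolin also without the second luteolin array and with gefitinib also without either gefitinib array. The signal of miR-16-2-3p was 7.65 and 8.92 with DMSO and 3.62 and 3.63 on co-administration, and its arm ratio fell by 1.04 (adjusted p = 0.0128). With 1 drug its ratio changed by -0.59 (luteolin) and -0.61 (gefitinib) and was not called. Its partner miR-16-5p is made from MIR16-1 as well as MIR16-2.

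miR-182-3p had its highest signals with gefitinib and its lowest on co-administration. Its hairpin is cleaved from the transcript that also holds miR-183 and miR-96 (chr7:129770383-129770492, minus strand, GRCh38.p14), and the partner miR-182-5p is known to target FOXO factors. The signal of miR-182-3p was 7.37 and 8.32 with DMSO, 4.64 and 3.31 with luteolin, 12.9 and 12.6 with gefitinib, and 2.32 and 2.62 on co-administration. The gefitinib arrays thus lay above both DMSO arrays and the luteolin and co-administration arrays below them. Its arm ratio fell by 1.67 on co-administration (SE 0.33, limma adjusted p = 0.0119), and changed by -1.25 with luteolin (adjusted p = 0.0747) and 0.32 with gefitinib (adjusted p = 0.602), which did not pass. The call on co-administration was lost without the first DMSO array (adjusted p = 0.0826) and without either co-administration array (0.0602 and 0.0739).

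The miR-30e and miR-20a hairpins lie in NFYC and in MIR17HG, the host of the oncogenic miR-17/92 cluster (chr1:40754355-40754446 and chr13:91351065-91351135, both on the plus strand, GRCh38.p14). The signal of miR-30e-3p was 5.30 and 6.52 with DMSO, 3.897 and 4.91 with luteolin, 4.90 and 4.88 with gefitinib, and 2.32 and 2.35 on co-administration. On co-administration both arrays lay below the other 6, and the arm ratio fell by 1.205 (SE 0.16, limma adjusted p = 0.00218), a call that held without any 1 of the 8 arrays. After normexp with quantile normalization this change was 0.0040 and was not called. Its changes with luteolin and with gefitinib, -0.42 and -0.25, were not called. The signal of miR-20a-3p was 3.38 and 4.65 with DMSO and 2.12 and 1.89 on co-administration, and its arm ratio fell by 0.85 (adjusted p = 0.0318). miR-17-3p, from the same cluster, had a ratio that changed by -0.22 on co-administration and was not called. Of the other 5 members of these clusters and their paralogues, miR-18a-3p, miR-25-5p, miR-92a-1-5p and miR-93-3p were detected on no array, and miR-106b-3p was detected on 1 DMSO array.

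The arm ratios of the other members detected throughout did not pass the test against DMSO. miR-21-3p, the passenger of the abundant oncogenic miR-21-5p, had a signal of 99.4 and 94.2 with DMSO, 80.8 and 61.2 with luteolin, 73.5 and 67.1 with gefitinib, and 54.7 and 42.1 on co-administration. Every drug array lay below both DMSO arrays in this signal, but the ratio on co-administration changed by -0.94 with an SE of 0.35 (limma adjusted p = 0.0997). The ratio of miR-23a-5p changed by -1.77 with luteolin and -1.82 on co-administration, neither called, and the ratios of the 2 luteolin arrays were -9.56 and -11.66. miR-31-3p, miR-17-3p, miR-221-5p, miR-29a-5p and miR-125a-3p changed by -0.33 to 0.28 over the 3 treatments.

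With 1 drug fewer ratios passed. Luteolin lowered 3 of the 15 member ratios, those of miR-15b-3p, miR-29b-1-5p and miR-100-3p, against 8.33% of all 36 hairpins and 0 of the 21 others. The median change was -0.50 in the members and -0.03 in the others, and the ratios of 10 members lay below those of DMSO-treated cells without overlap (33.3% of all 36 hairpins). With 1 array left out at a time the members' median lay between -0.80 and -0.38, and other processing made it smaller still, as given below. Gefitinib lowered 1 of the 15, that of miR-15b-3p, against 2.78% of all hairpins and 0 of the others, with medians of -0.25 and -0.03. Here the ratios of 9 members lay below and 2 above DMSO without overlap (38.9% and 16.7% of all hairpins), the latter being miR-182-3p and miR-22-5p. The luteolin count became 0 without either DMSO array, 1 without the second luteolin array or either co-administration array, and 5 without the first luteolin array. The gefitinib count became 0 without any 1 of the DMSO, gefitinib or co-administration arrays, and 2 without either luteolin array. The 3 comparisons with DMSO share the same 2 DMSO arrays, on which the median member ratio was -5.32 and -5.64.

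Adding luteolin to gefitinib lowered 5 of the 15 member ratios, against 16.7% of all 36 hairpins and 1 of the 21 others, and the median change was -0.47 in the members and -0.01 in the others. The ratio of miR-100-3p fell by 2.01 (limma adjusted p = 0.0138), that of miR-182-3p fell by 1.99 (adjusted p = 0.00923), that of miR-29b-1-5p fell by 1.31 (adjusted p = 0.00923) and that of miR-30e-3p fell by 0.96 (adjusted p = 0.00923). The ratio of miR-22-5p fell by 0.83 (adjusted p = 0.0182), from signals of 6.50 and 7.08 with gefitinib to 3.47 and 3.35 on co-administration. Its signals with DMSO were 4.28 and 5.46, and both gefitinib arrays lay above all others. The ratios of 12 of the 15 members lay lower on co-administration than with gefitinib without overlap (47.2% of all 36 hairpins). After normexp with quantile normalization 0 of the 15 were called, and the changes of miR-30e-3p and miR-22-5p turned to 0.0053 and 0.12. The number of called ratios was 0 without the first gefitinib array or either co-administration array, 2 without the second gefitinib array, and 1 with both gefitinib arrays counted as 1 sample.

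Adding gefitinib to luteolin lowered 1 of the 15 member ratios, against 5.56% of all 36 hairpins and 1 of the 21 others. The ratio of miR-30e-3p fell by 0.79 (limma adjusted p = 0.0368). The ratios of miR-100-3p and miR-29b-1-5p changed by -1.51 (adjusted p = 0.0852) and -0.62 (adjusted p = 0.165) and were not called. After normexp with quantile normalization the change of miR-30e-3p was 0.060. The call of miR-30e-3p was lost whichever of the 8 arrays was left out, and without the second luteolin array that of miR-100-3p passed (adjusted p = 0.0105). The ratios of 5 members lay lower without overlap (25% of all 36 hairpins). The median change was -0.27 in the members and -0.09 in the others. With 1 array left out at a time the members' median lay between -0.64 and -0.13. When the effect of both drugs was set against the sum of the single effects on the log2 scale, 0 of the 36 hairpins were called by limma, with 4 at an unadjusted p below 0.05, of which 2 were members.

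**Figure D3:**
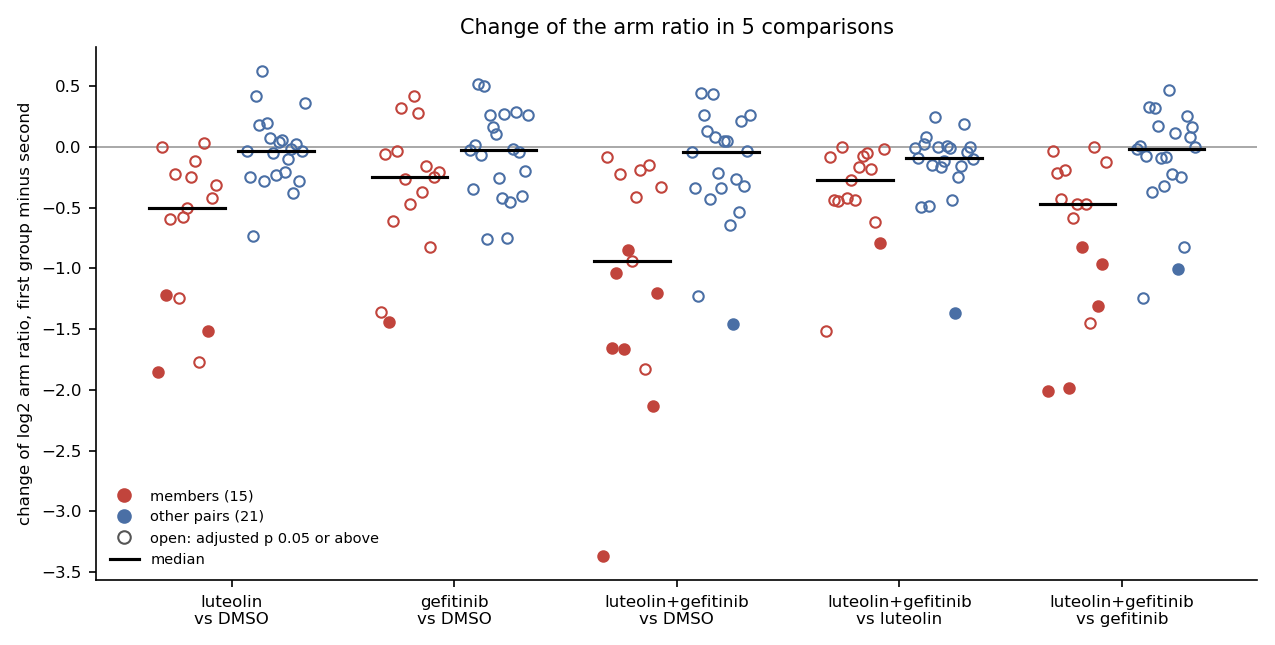
Change of the log2 arm ratio (first group minus second) in 5 comparisons, 1 point per hairpin with both arms detected on all 8 arrays: 15 members (red) and 21 other hairpins with the weaker arm over the stronger (blue), filled where limma's adjusted p was below 0.05 and with the median as a line. The members' median lies at -0.94 on co-administration against DMSO and the others' at -0.04, and the first 3 comparisons share the DMSO arrays.

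Both arms were then set side by side. Over the 15 members detected throughout, the median change of the scaled signal on co-administration was -1.01, and over their partners it was -0.13, beside -0.13 over all 365 miRNAs detected on all 8 arrays. Tested as single miRNAs, 8 of these 15 members were lower on co-administration, against 6.04% of the 480 miRNAs tested. With gefitinib 4 were lower (4.58% of all) and with luteolin 1 (1.88% of all). Of the 44 partners tested, 0 were called with luteolin, 0 on co-administration and 1 with gefitinib, miR-149-5p, whose signal fell from 7.97 ± 1.71 (SD, n = 2) to 3.61 ± 0.597 (limma adjusted p = 0.0469). At an unadjusted p below 0.05, 0 partners passed with luteolin (8.54% of all miRNAs), 4 with gefitinib (23.8%) and 1 on co-administration (25.8%). The 4 were miR-149-5p, miR-221-3p, miR-92a-3p and miR-18a-5p, all with a change below 0, and the 1 was miR-149-5p. The partners of the 15 members changed by between -0.34 and -0.00 on co-administration, and the members by between -3.45 and -0.23.

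**Figure D4:**
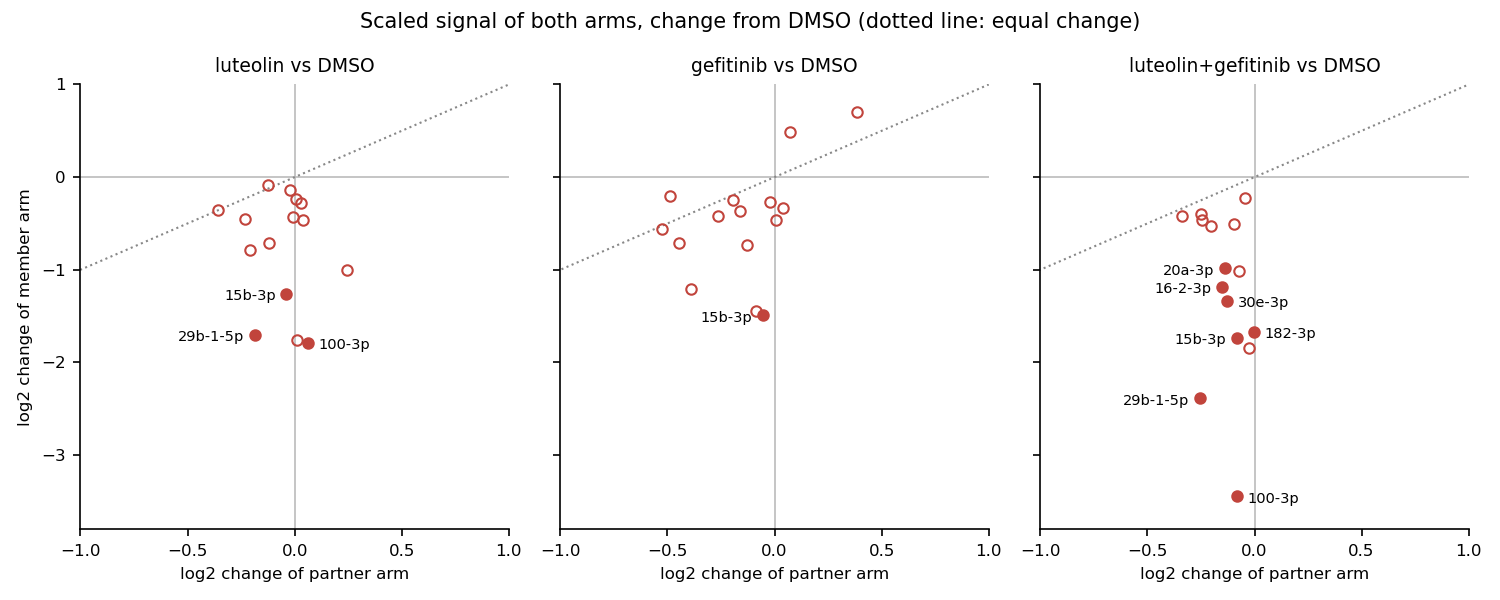
Log2 change of the scaled signal of the member arm (vertical) against that of its partner (horizontal) for 15 hairpins in 3 comparisons with DMSO; the dotted line marks equal change of both arms, and filled, named points are hairpins whose arm ratio was called. On co-administration the partners lie between -0.34 and -0.00 and the members reach -3.45 in miR-100-3p.

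Member arms were dimmer than their partners, and dim miRNAs as a whole shifted slightly. The 365 miRNAs detected throughout were ranked by mean signal and split into 3 parts of near-equal size. Of the 15 members, 9 lay in the dimmest part, with mean signals up to 9.22, and all 15 partners lay in the brightest. On co-administration the median change was -0.28 in the dimmest part, -0.09 in the middle one and -0.09 in the brightest. Without the members the dimmest part shifted by -0.23. The weaker arms of the 21 other hairpins were as dim, with a median mean signal of 5.10 against 5.58 in the members, and 15 of them lay in the dimmest part. The ratios of these 15 hairpins had a median change of -0.03 on co-administration, while those of the 9 dim members had one of -1.205. The other hairpins differed in that their arms lay closer together, with a median ratio of -1.38 against -5.84, and 8 of their 21 stronger arms were in the brightest part. The part of this wider gap in the result was not tested.

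A further 10 members had a signal on some arrays only, and they are described as detected or not, with a fold that sets the brighter group against the lowest detected signal on each array of the other. That fold assumes that an undetected arm was no brighter. For the single-miRNA test an undetected arm was set to a common floor of 0.609, which hides the spread within a group at the floor and so makes its p-value too small. An arm detected on both arrays of 1 group alone entered that test through the group where it is high, so that its direction was fixed. The direction was also fixed for any arm set against a group in which neither array detected it. Both kinds of comparison are given here without a p-value. The let-7 family, known to repress RAS and LIN28, gave 4 of the 10. The signal of let-7a-3p was 4.26 and 4.28 with DMSO, 1.75 and 1.34 with luteolin, 1.62 and 1.43 with gefitinib, and not detected on either co-administration array. The arm was lower with luteolin (limma adjusted p = 0.0112) and with gefitinib (adjusted p = 0.00614). On co-administration its ratio to let-7a-5p was at least 6.85-fold lower than with DMSO. let-7e-3p was detected with DMSO alone, at 2.08 and 2.46, and its ratio to let-7e-5p was at least 3.98-fold lower with luteolin, 4.33-fold lower with gefitinib and 4.04-fold lower on co-administration. The lowest detected signals of the gefitinib arrays, 0.512 and 0.573, lie below the common floor, and against that floor the arm was 3.71-fold lower with each treatment. let-7f-2-3p was also detected with DMSO alone, at 1.03 and 0.804. The lowest detected signal of the second co-administration array, 0.830, lies above the second of these values. Its absence on that array therefore does not show a lower level. let-7i-3p was detected with DMSO (0.951 and 1.08) and with gefitinib (1.34 and 1.45) and on no array with luteolin or on co-administration. On co-administration its ratio was at least 1.48-fold lower than with DMSO and 1.90-fold lower than with gefitinib. Of the 8 let-7 members, let-7b-3p, let-7d-3p, let-7f-1-3p and let-7g-3p were detected on none of the arrays.

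The arms miR-181a-3p, miR-222-5p and miR-99b-3p were detected on both DMSO arrays and on neither co-administration array. miR-181a-3p was at 3.65 and 3.97 with DMSO, was detected on 1 gefitinib array at 1.14 and on no array with luteolin, and its ratio to miR-181a-5p was at least 7.27-fold lower with luteolin and 5.83-fold lower on co-administration. miR-222-5p, whose partner is known to target the cell cycle inhibitor p27, was at 3.62 and 3.53 with DMSO, on 1 array each with luteolin (0.871) and gefitinib (0.563), and its ratio was at least 5.79-fold lower on co-administration. The signal of miR-222-3p was 314 and 309 with DMSO and 328 and 369 on co-administration. miR-99b-3p was at 1.26 and 1.59 with DMSO, 0.636 and 0.720 with gefitinib and 0.754 on 1 luteolin array. Its ratio was at least 1.99-fold lower on co-administration than with DMSO.

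miR-629-3p was higher with gefitinib, and miR-378a-5p was detected with gefitinib alone. miR-629-3p, from a hairpin within TLE3, was not detected with DMSO and had a signal of 1.45 on 1 luteolin array, 6.50 and 6.57 with gefitinib, and 4.43 and 5.11 on co-administration. Its ratio to miR-629-5p was at least 11.6-fold higher with gefitinib and 7.11-fold higher on co-administration than with DMSO. For the arm alone these folds were at least 9.11 and 6.63. The signal of miR-629-5p was between 0.518 and 1.02 on all 8 arrays, so that this hairpin was not an abundant one by its partner arm. On the first gefitinib array it was 0.518, close to the lowest detected signal there, 0.512, which makes the ratio imprecise. Wherever miR-629-3p was detected it was the brighter arm, with a log2 ratio of 0.93 to 3.65. miR-378a-5p, from a hairpin in PPARGC1B, a coactivator gene of mitochondrial metabolism, was detected with gefitinib alone, at 1.16 and 1.29, and its ratio was at least 1.83-fold higher than with DMSO. It was not detected on co-administration, where its ratio was at least 1.66-fold lower than with gefitinib.

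Of the 15 members with a tested ratio, 12 have a sequence in the table. The 7 whose ratio fell on co-administration had a median GC content of 36.4% and the other 5 had one of 50%. Of the 7, 4 began with C, and of the 5, 0 did. These values describe 12 arms and were not tested.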

How the data were processed

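Total RNA of PC-3 cells was hybridised to 1-colour Agilent miRNA arrays, 8 arrays on 1 slide read in 1 scan. Per the file headers, the authors' spot and total gene intensities came from Agilent Feature Extraction 10.7.3.1, which subtracts background, sums the probes of a miRNA and writes a fixed low value where it detects none; no array was scaled before deposit. A deposited series table held the authors' processed signals, matched the spot signals and served as an alternative. The deposited 0 or 1 flags gave detection.

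Arm ratios were log2 differences between the total gene signals of both arms of a hairpin, fitted with limma 3.58.1 (R 4.3.3) over all 4 groups without covariates, with Benjamini-Hochberg adjustment over 36 hairpins. Single miRNAs, 480 in number, were scaled to the 75th percentile of the 365 detected on all 8 arrays, raised to a floor of 0.609 and fitted in the same way. Tables and plots were made with Python 3.11.15, pandas 2.3.3 and matplotlib 3.10.9, and the fits were tested on simulated data. Precision is limited by 2 arrays per group. Pairs were formed by hairpin name. Hairpin positions and mature sequences are from RefSeq (GRCh38.p14), and overlapping genes were taken without regard to strand.

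The members and marker lists were chosen with earlier results of these data known. Named with full values were the called members (up to 5 falls and 5 rises per comparison, without overlap between the groups), the 3 largest changes where fewer than 3 were called, the members detected in 1 group and not in another, and family examples; the remaining called members were named after their values were seen. Alternatives varied the background correction, normalization, signal summary, added constant, filter, test, replicate block and the arrays included.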

Additional observations from a re-analysis of the deposited data

Results flagged for a closer look

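By limma's interaction term, the effect of both drugs minus the sum of the single effects on the log2 scale, 16 of 480 single miRNAs were called, 3 of them members. The value was 1.89 for let-7e-3p (adjusted p = 0.0111), 2.29 for miR-222-5p (adjusted p = 0.0166) and -1.01 for miR-378a-5p (adjusted p = 0.0450). The floor of 0.609 fixes these values. let-7e-3p was at the floor in all 3 drug groups, so that each of its changes was -1.89, and miR-222-5p was at the floor with gefitinib and on co-administration, so that its value is its luteolin change of -2.29 with the sign turned. miR-378a-5p was at the floor in every group but gefitinib, so that its value is its gefitinib change of 1.01 with the sign turned. An arm at the floor cannot be seen to fall further, and these calls therefore say nothing about whether the drugs' effects add.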

How the results depend on the processing

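In each list of 5 values below, the order is luteolin, gefitinib and co-administration against DMSO, then co-administration against luteolin and against gefitinib. The member ratios called were 3, 1, 7, 1 and 5 of 15, and the cause of a change under an alternative was not tested. They were 0, 0, 0, 0 and 0 with 16 added to the signals, 1, 2, 3, 0 and 0 after normexp with quantile normalization, 2, 3, 5, 1 and 2 with quantile normalization alone, 3, 1, 7, 0 and 3 with the mean processed signal and the same with the series table. They were 3, 0, 4, 0 and 4 where both arms had to lie well above background, and 7, 9, 13, 0 and 7 with hairpins detected in at least 1 group and undetected arms at the floor, which tests more members. They were 1, 1, 7, 0 and 6 with each pair of groups fitted alone, 3, 1, 7, 1 and 5 with a mean-variance trend, 0, 0, 2, 0 and 2 with the adjusted p of the methods' t-test, and 2, 1, 7, 0 and 4 at its unadjusted threshold with a fold over 2. With both gefitinib arrays counted as 1 sample, a choice made after seeing that they differed little, they were 3, 0, 6, 0 and 1.

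The members called as single miRNAs, in either direction, were 5, 11, 15, 1 and 7 of 24 tested, beside 10, 58, 58, 9 and 22 of all 480 miRNAs. These counts hold arms that passed the detection filter through 1 group alone, where they are high, such as let-7e-3p, miR-181a-3p, miR-222-5p and miR-378a-5p, and are given only to show how they move with the processing. They were 0, 11, 12, 1 and 1 with 16 added, 0, 6, 8, 0 and 1 after normexp with quantile normalization, 2, 7, 9, 2 and 3 with quantile normalization alone, 4, 8, 16, 1 and 2 with the mean processed signal and with the series table, 4, 7, 12, 0 and 8 without scaling, 5, 9, 14, 1 and 4 with a floor of 1, 1, 4, 9, 0 and 4 among miRNAs detected on all arrays, and 1, 3, 3, 0 and 3 without a filter. They were 0, 6, 12, 0 and 8 with groups fitted alone, 5, 10, 13, 0 and 5 with a trend, 0, 4, 4, 0 and 2 with the adjusted p of the methods' t-test, 8, 9, 14, 2 and 8 at its unadjusted threshold, and 4, 4, 12, 0 and 3 with the gefitinib arrays as 1 sample.

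The median change of the member ratios moved to -0.053 with luteolin, -0.045 on co-administration and -0.10 against gefitinib after normexp with quantile normalization, to -0.10, -0.16 and -0.11 with 16 added, and to -0.41 on co-administration where both arms were well above background. Under normexp with quantile normalization, which changes 2 choices together, 7 named ratios changed sign. miR-15b-3p moved to 0.0044 with luteolin, 0.077 with gefitinib and 0.025 on co-administration. miR-30e-3p on co-administration moved to 0.0040 against DMSO, 0.060 against luteolin and 0.0053 against gefitinib, and miR-22-5p to 0.12 against gefitinib. Of 374 alternatives to 19 named ratios, 254 kept the direction and the call, 102 kept the direction and lost the call, 11 gained it and 7 changed sign.

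With the replicate number as a block, the member ratios called were 3, 3, 8, 2 and 5, and the single members 5, 12, 15, 1 and 7. The numbers share no stated origin: the differences between replicates correlated across the 36 hairpins at 0.936 between DMSO and luteolin, at 0.644 and 0.625 between co-administration and these, and at -0.442, -0.374 and -0.283 between gefitinib and the other groups.

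Leaving out each array in turn gave 0 to 5, 0 to 2, 4 to 9, 0 to 1 and 0 to 6 called ratios, 2 to 7, 4 to 12, 5 to 16, 0 to 2 and 2 to 9 called single members, and medians of -0.80 to -0.38, -0.30 to -0.20, -1.13 to -0.68, -0.64 to -0.13 and -0.73 to -0.40. Of the 47 members, 22 were detected on no array and have only an upper limit.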
